A study of Mus musculus with 62 samples.

Results

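Of 10 genes of the insulin receptor and its adaptors, 6 changed with voluntary wheel running in mouse quadriceps, 3 upward and 3 downward, against 14.0% of all tested genes, and none passed the test for either supplement. Grb14 and Inpp5j also passed on counts summed per termination session, the level at which running was compared, and the other 4 did not. The genes were chosen by name, with earlier results of these data known. They are the receptor gene Insr, the substrates Irs1 and Irs2, the receptor-binding adaptors Grb10 and Grb14, and the lipid phosphatases Inppl1 and Inpp5j. Pik3r1, Akt2 and Rps6kb1 of the downstream kinase chain complete the list. All 10 were found among the 55487 gene rows of the count table, and all 10 were among the 14549 genes that passed the filter on low counts.

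Messenger RNA of quadriceps muscle was sequenced from 62 mice, all male, with 1 library each. The study crossed wheel running with the NAD precursor nicotinamide riboside (NR) and pterostilbene (PT, a stilbenoid related to resveratrol). The 4 non-running groups, with neither supplement, NR alone, PT alone or both, held 8 mice each. The runners held 7 mice with neither, 7 with NR alone, 8 with PT alone and 8 with both. The series title gives the NR route as IV. Strain, age and doses are not in the labels. Mice came in 2 cohorts and were terminated on 8 days in 16 sessions, a morning and a noon session on each day. Within a day all runners shared 1 session and all non-runners the other, so running was compared between sessions and the supplements within them.

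Library totals ran from 5642043 to 30804390 counts, with a median of 16148218. Muscle fibre markers dominated, with medians of 60300 CPM (counts-per-million of the TMM-scaled library size) for Myh4, the fast IIb myosin, 27800 for Acta1, skeletal actin, and 15500 for Ckm, muscle creatine kinase. One library stood apart: the runner with NR alone numbered replicate 1 had 15.1% of its counts in 4 ribosomal RNA-like genes, against at most 1.43% in the others. The runner with both supplements numbered replicate 6 held the liver transcript Alb at 274 CPM, against at most 2.13 CPM in the other 61 libraries. Several running results are given with and without the first library, and the other results with it alone.

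Insulin binding activates the receptor kinase, which phosphorylates the substrates IRS1 and IRS2. These recruit phosphatidylinositol 3-kinase, whose regulatory subunit p85 is made by Pik3r1, and the lipid PIP3 that it forms draws AKT2 to the membrane. In muscle AKT2 promotes movement of the glucose transporter GLUT4 to the cell surface, and S6 kinase 1, from Rps6kb1, drives protein synthesis and feeds back on the substrates. GRB10 and GRB14 are related adaptors that bind the active receptor and inhibit it, while SHIP2, from Inppl1, and the 5-phosphatase from Inpp5j remove a phosphate from PIP3. In most mouse tissues Grb10 is an imprinted gene expressed from the maternal copy.

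In the mm10 coordinates of the deposited table, Insr lies at chr8:3122061-3279617, Irs1 at chr1:82233101-82291416 and Irs2 at chr8:10984681-11008458. Grb10 lies at chr11:11930508-12038683, Grb14 at chr2:64912476-65024987, Inppl1 at chr7:101822632-101838229 and Inpp5j at chr11:3494375-3504821. Pik3r1 lies at chr13:101680563-101768217, Rps6kb1 at chr11:86498871-86544805 and Akt2 at chr7:27591552-27639450. Akt2 is on the plus strand and the other 9 are on the minus strand.

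The promoter windows of Grb10 and Grb14 are shown because the running changes of these related inhibitors, fitted over mice and averaged over the supplement arms, had opposite signs. RefSeq (build GRCm38.p6) gave windows for 8 of the 10 genes, 14 windows in all, and had no entry for Insr or Inpp5j. Each line below is the 250 bases before an annotated start, 5′ to 3′ on the minus strand, with 2 starts for Grb10.
Grb10 at chr11:12027972-12028221: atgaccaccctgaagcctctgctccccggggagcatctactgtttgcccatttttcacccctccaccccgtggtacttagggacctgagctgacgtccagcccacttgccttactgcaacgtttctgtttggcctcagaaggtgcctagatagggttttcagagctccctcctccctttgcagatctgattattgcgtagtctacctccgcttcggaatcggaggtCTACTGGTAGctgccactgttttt
Grb10 at chr11:12037421-12037670: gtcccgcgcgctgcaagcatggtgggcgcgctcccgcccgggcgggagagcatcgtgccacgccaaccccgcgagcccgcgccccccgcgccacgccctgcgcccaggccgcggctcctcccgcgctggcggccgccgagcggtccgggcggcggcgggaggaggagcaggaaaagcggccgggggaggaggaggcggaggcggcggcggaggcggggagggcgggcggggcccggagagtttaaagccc
Grb14 at chr2:65022767-65023016: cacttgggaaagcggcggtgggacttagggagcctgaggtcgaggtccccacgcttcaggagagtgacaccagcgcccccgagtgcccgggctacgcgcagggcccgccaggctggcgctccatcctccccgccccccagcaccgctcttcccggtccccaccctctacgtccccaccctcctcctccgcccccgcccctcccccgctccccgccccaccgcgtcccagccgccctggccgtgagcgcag
Capitals mark a match to CTA, any 4 bases, TAG, 24 to 15 bases before the downstream Grb10 start. This loosened MEF2 pattern left the 4 middle bases free, here CTGG. A match to it does not make the stretch a MEF2 site. MEF2 proteins are transcription factors of muscle. The upstream Grb10 window (81.2% GC, 40 CpG pairs) and the Grb14 window (75.2% GC, 24 CpG pairs) were above the median of all 32851 windows, which was 52.4% GC and 6 CpG pairs. The downstream Grb10 window was close to it, with 54.0% GC and 8 CpG pairs.

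Across the 14 windows, searched on both strands, the loosened MEF2 pattern occurred in the downstream Grb10 window alone, against 3.2% of all windows. The E-box CACGTG was found 115 to 110 bases before the Irs1 start and 44 to 39 bases before the Irs2 start, against 6.02% of all windows. The FOXO pattern TGTTTAC, present in 3.17% of all windows, was found in none of the 14. These matches describe letters in a window and were not tested as binding sites.

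Per kilobase of gene length, Akt2 had the highest level over the 62 libraries, at 29 ± 1.64 CPM per kilobase (SD). Inppl1 followed at 23.7 ± 2.38, then Insr at 7.73 ± 0.895, Rps6kb1 at 6.51 ± 0.599 and Grb10 at 5.07 ± 0.684. Irs2 stood at 4.36 ± 0.809, Irs1 at 3.98 ± 1.24 and Pik3r1 at 3.7 ± 0.533, with Grb14 at 2.39 ± 0.645 and Inpp5j lowest at 0.221 ± 0.117. The middle of this order was not separated: Irs1 exceeded Pik3r1 in 36 of 62 libraries, Irs2 exceeded Irs1 in 42 and Grb10 exceeded Irs2 in 44. Akt2 exceeded Inppl1 in 57 libraries, while Inppl1 exceeded Insr and Grb14 exceeded Inpp5j in all 62. Among mice, the CPM level varied least for Akt2 (coefficient of variation 5.66%) and most for Inpp5j (53.1%), which had 0 to 65 counts per library. Its single 0, in a runner with neither supplement, allows up to 0.294 CPM at 3 counts in a library of 10180034 counts.

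Counts of 5 of these genes may include reads of a neighbour on the opposite strand, or may lack reads of the shared stretches. The labels give a stranded kit but not how strand was handled in counting. GENCODE M21 places 2822 exon bases of Gm9747 within those of Irs1. Inppl1 shares 1204 exon bases with the antisense gene Gm10602 and 95 with Phox2a, and Inpp5j shares 401 with Pla2g3. The shared stretches were shorter for Irs2 (162 bases) and Rps6kb1 (155 bases).

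**Figure D1:**
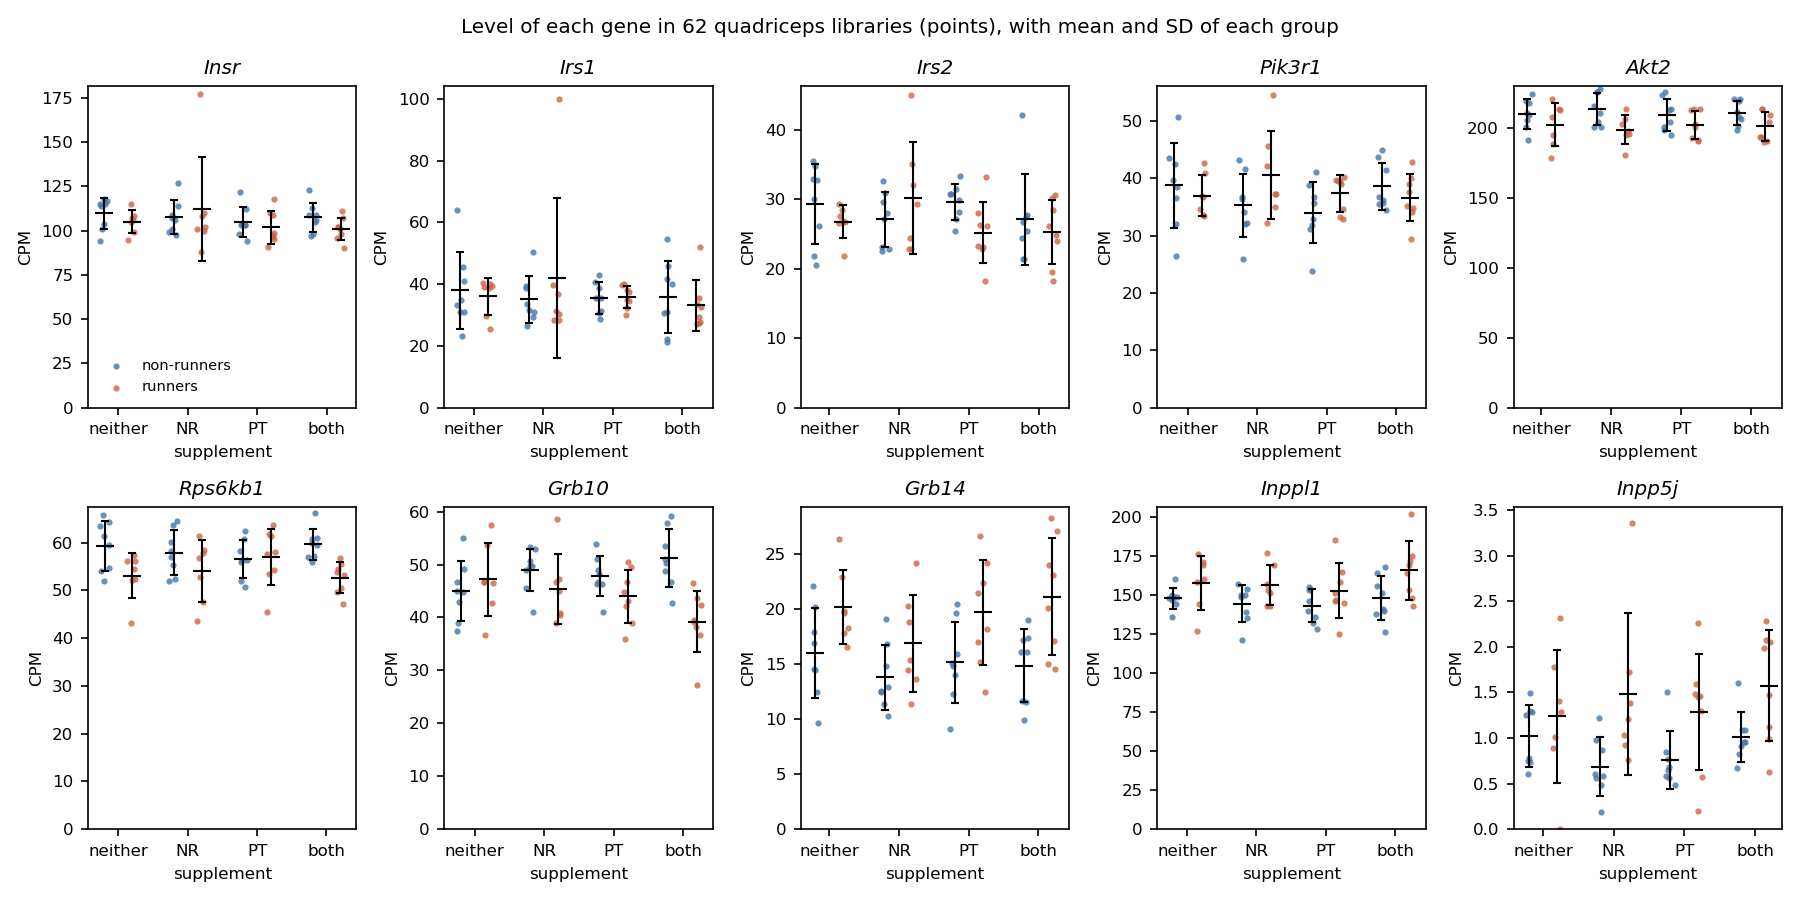
Level of each of the 10 genes, in CPM on linear axes from 0, in every library (points) by supplement and running, with the mean and SD of each group of 7 or 8 mice as bars. Grb14 and Inpp5j lie higher in runners in each supplement arm, with overlapping points, and 1 runner with NR alone lies far above its group for Insr (177 CPM) and Irs1 (100 CPM).

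The running comparison set 30 runners against 32 non-runners, averaged over the 4 supplement arms and adjusted for day and time of termination. A gene was called at an edgeR adjusted p below 0.05, and 6 of the 10 genes were called against 14.0% of all tested genes. Grb14, Inppl1 and Inpp5j rose (8.41% of all genes were called higher), and Grb10, Akt2 and Rps6kb1 fell (5.58% were called lower). The median log2 change of the 10 was -0.01, beside 0.013 over all tested genes. Of all calls 60.1% were higher, and 47.8% without the library rich in ribosomal RNA-like reads. In each of the 6 the runners and non-runners overlapped.

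Averaged over the supplement arms, the inhibitory adaptors went opposite ways in this fit over mice. Grb14 lay between 11.4 and 28.3 CPM in runners with a median of 19.3, and between 9.07 and 22.1 CPM in non-runners with a median of 14.8. Runners were thus higher in the middle and at both ends of the range, and their mean exceeded that of non-runners on all 8 days. The fitted log2 change was 0.38 ± 0.09 (SE), or 1.3-fold, with an adjusted p of 0.00245. Of 30 pairs of mice matched by day and supplement arm, 21 had the higher value in the runner. Here and below, the runner and non-runner of a pair came from different sessions of the same day. They thus also differed in time of termination, and the pairs fall on 8 days. All 4 runner groups had higher Grb14 means than all 4 non-runner groups, from 21.2 CPM in runners with both supplements to 13.8 CPM in non-runners with NR alone.

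Grb10 ranged from 27.3 to 58.6 CPM in runners with a median of 43.4, and from 37.4 to 59.2 CPM in non-runners with a median of 48.9. Several runners lay below every non-runner, whereas the upper ends were alike. The log2 change was -0.14 ± 0.04 (adjusted p = 0.0149), with lower values in the runner in 22 of 30 pairs. Runners had the lower mean on 5 of 8 days and the higher mean on the other 3.

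Both lipid phosphatase genes rose. Inppl1 lay between 125 and 202 CPM in runners with a median of 157, and between 121 and 168 CPM in non-runners with a median of 148. The lower ends nearly coincided and the highest values were in runners, a log2 change of 0.11 ± 0.03 (adjusted p = 0.0141, higher in the runner in 21 of 30 pairs). Inpp5j was scarce, at 0 to 3.36 CPM in runners with a median of 1.39 and at 0.192 to 1.6 CPM in non-runners with a median of 0.801. Its log2 change was the largest of the 10, at 0.69 ± 0.17 or 1.61-fold (adjusted p = 0.00524), and 22 of 30 pairs and the means of all 8 days were higher in runners. As for Grb14, all 4 runner groups had higher means than all 4 non-runner groups, for Inppl1 and for Inpp5j. The 3.36 CPM belonged to the library rich in ribosomal RNA-like reads, and without that library the log2 change was 0.62 ± 0.17 (adjusted p = 0.00791).

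The kinase genes that were called fell slightly. Akt2 lay between 179 and 221 CPM in runners with a median of 202, and between 192 and 228 CPM in non-runners with a median of 211. The log2 change was -0.07 ± 0.02, a fold of 0.953 (adjusted p = 0.027), and runners had the lower mean on 7 of 8 days. All 4 runner groups had lower Akt2 means than all 4 non-runner groups, from 199 CPM in runners with NR alone to 214 CPM in non-runners with NR alone. Rps6kb1 ranged from 43.2 to 63.6 CPM in runners with a median of 54.5, and from 50.8 to 66.2 CPM in non-runners with a median of 58.3. Its log2 change was -0.11 ± 0.03 (adjusted p = 0.015), with 18 of 30 pairs and 7 of 8 days lower in runners.

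The receptor, its substrates and p85 were not called. The Insr medians were 102 CPM (runners) and 106 CPM (non-runners), with a log2 change of -0.04 and a 95% interval from -0.11 to 0.04. The highest Insr value, 177 CPM, was that of the library rich in ribosomal RNA-like reads. Without it Insr passed the test as lower in runners, at -0.08 ± 0.03 (adjusted p = 0.0418), and 7 of 10 genes were called. Without all 8 libraries above 5 times the median ribosomal RNA-like share, 4 of them runners, Insr had -0.09 ± 0.03 (adjusted p = 0.0409) and Akt2 was not called (-0.06 ± 0.02, adjusted p = 0.0992). Irs1 spread widely, from 25.6 to 100 CPM in runners and from 21.4 to 64 CPM in non-runners, with medians of 34.6 and 34.2. Its log2 change was 0.01 (interval -0.19 to 0.2), and -0.07 ± 0.08 without that library. Irs2 had medians of 26.4 and 27.9 CPM and a change of -0.08 (interval -0.21 to 0.05), and Pik3r1 had 37.3 and 36.5 CPM and a change of 0.05 (interval -0.04 to 0.13).

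**Figure D2:**
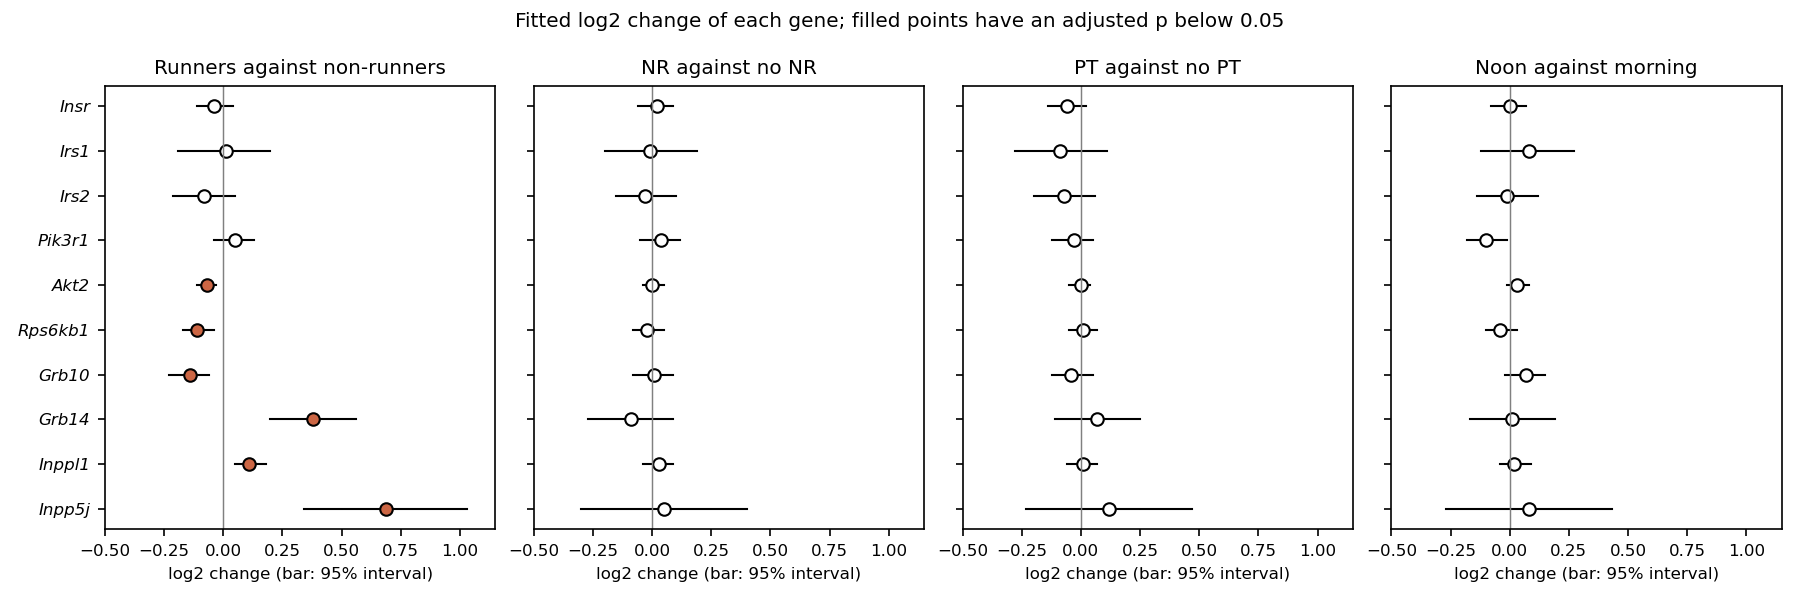
Fitted log2 change of each gene (points) with its 95% interval (bars) for running, NR, PT and noon against morning over 62 libraries; filled points have an edgeR adjusted p below 0.05. Filled points occur for running alone, from -0.14 for Grb10 to 0.69 for Inpp5j.

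Calls for the 4 smaller changes depended on how mice were counted. On counts summed per session, which treat the 16 sessions as the replicates, Grb14 (0.40 ± 0.05, adjusted p = 0.00146) and Inpp5j (0.71 ± 0.12, adjusted p = 0.00498) passed. Grb10 (-0.16, adjusted p = 0.138), Inppl1 (0.09, 0.0753), Akt2 (-0.07, 0.0898) and Rps6kb1 (-0.11, 0.0668) did not, although their changes were close to those over mice. Cohort 1 alone and cohort 2 alone, with 31 mice each, called none of the 10. The sign was the same in both cohorts for all 6: 0.41 and 0.35 for Grb14, 0.68 and 0.70 for Inpp5j, 0.11 and 0.09 for Inppl1. The falls were -0.19 and -0.09 for Grb10, -0.07 and -0.07 for Akt2, and -0.12 and -0.10 for Rps6kb1.

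Body weight change moved with running, from -5.2 to 3.5 in runners (median -0.45) and from -0.4 to 6.3 in non-runners (median 2.5), in a unit the labels do not state. With it as an added term Akt2 alone was called (-0.12 ± 0.03, adjusted p = 0.0314). Grb10 then had -0.04 ± 0.06 and Inppl1 0.01 ± 0.05, while Grb14 had 0.33 ± 0.13 (adjusted p = 0.144) and Inpp5j 0.46 ± 0.26 (adjusted p = 0.329). In that fit 494 of all genes were called, against 2035 without the term.

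**Figure D3:**
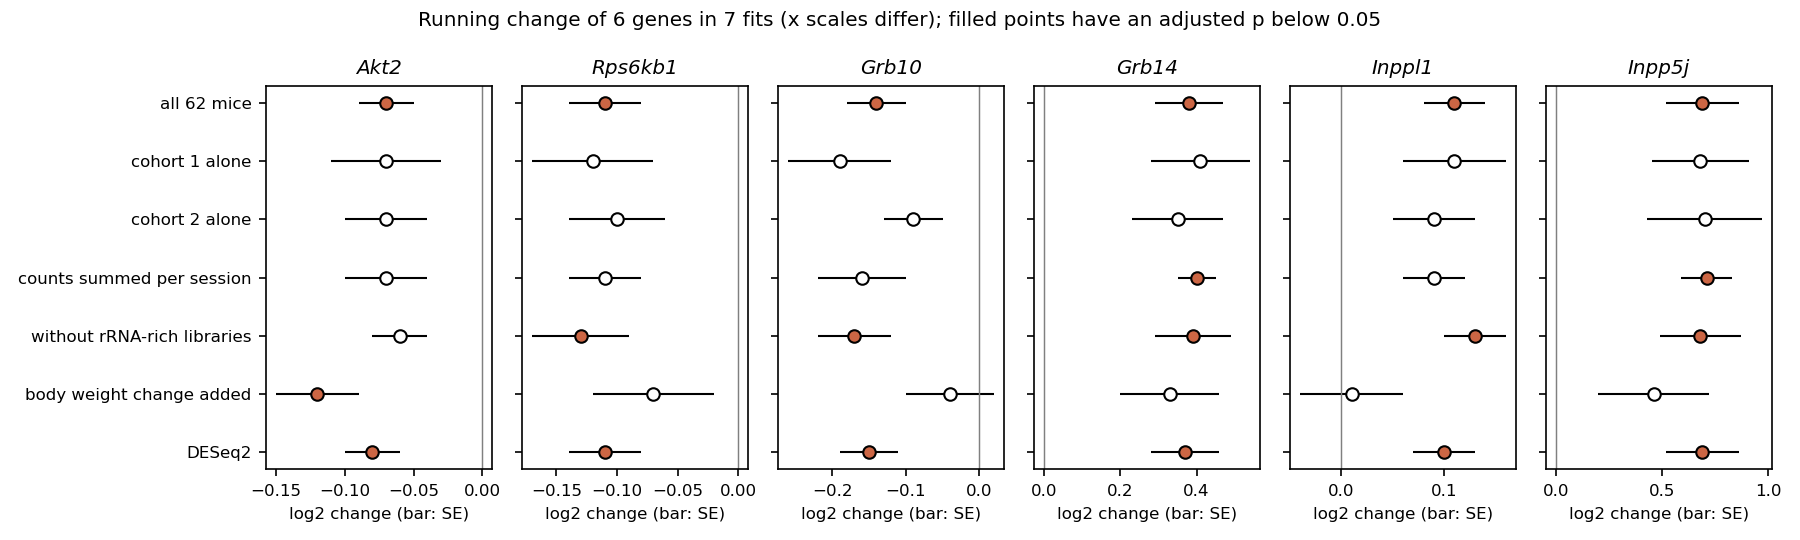
Log2 change with running (points) and its SE (bars) of the 6 called genes in 7 fits, with a separate horizontal scale for each gene; filled points have an adjusted p below 0.05. Signs are the same in all 7 fits, Grb14 and Inpp5j are filled for the session sums, and Akt2 alone is filled with body weight change added.

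Endothelial markers moved with running too in the fit over mice, where 8.41% of all tested genes were called higher and 5.58% lower. The cell type lists are given from that fit alone and not on session sums. All 18 endothelial markers rose, and their summed level was 511 to 896 CPM in runners (median 644) and 480 to 633 CPM in non-runners (median 561). Of the other lists, 3 of 11 fibroblast genes, 2 of 12 macrophage genes and 1 of 10 adipocyte genes rose and none fell. In smooth muscle and pericytes 3 of 10 rose and 1 fell, and of 8 satellite cell and regeneration genes 4 fell. Of 7 Schwann cell genes 1 fell, and 0 of 5 erythrocyte genes and 0 of 1 tested lymphocyte genes were called in edgeR or DESeq2, or had an unadjusted p below 0.05. Of 15 muscle fibre genes 2 rose and 2 fell, and the median of their sum was 207000 CPM (runners) and 216000 CPM (non-runners). No marker of these lists was at 0 in all libraries. Once group, day and time were removed, the endothelial sum correlated over 62 libraries with Inpp5j (r = 0.44), Grb14 (0.31), Inppl1 (0.30) and Rps6kb1 (-0.45). The values were 0.33 for Insr and 0.28 for Irs1, which were not called, and 0.02 for Grb10 and -0.12 for Akt2, which were. The part of these cells in the running changes was not tested, and in whole muscle a change in cell number cannot be told from a change in RNA per cell.

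Within the supplement arms, running was called for 1 of the 10 genes in 1 of the 4 arms. In mice with both supplements Grb10 was at 27.3 to 46.6 CPM in runners with a median of 39.4, and at 42.8 to 59.2 CPM in non-runners with a median of 50.7. Only 2 runners reached the range of the non-runners, a log2 change of -0.40 ± 0.08 (adjusted p = 0.00663), in an arm where 1.70% of all genes were called. With neither supplement the Grb10 medians were 46.7 CPM (7 runners) and 45 CPM (8 non-runners), a change of 0.05 ± 0.09 (adjusted p = 0.931). With NR alone the change was -0.10 and with PT alone -0.13, neither called. The difference between arms did not pass its own test: the running by PT term was -0.24 ± 0.08 (unadjusted p = 0.00669) and the running by NR term -0.21 ± 0.08 (unadjusted p = 0.015), with an adjusted p of 1 for each.

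The 4 arms gave running changes of 1 sign for 4 of the called genes, and changes of both signs for Grb10 and Rps6kb1. Grb14 changed by 0.31 with neither, 0.32 with NR alone, 0.39 with PT alone and 0.50 with both. Inpp5j had 0.36, 0.86, 0.86 and 0.66 in the same order, Inppl1 0.08, 0.11, 0.10 and 0.16, and Akt2 -0.06, -0.11, -0.05 and -0.07. Rps6kb1 had -0.15, -0.10, 0.01 and -0.18. Without the library rich in ribosomal RNA-like reads, the Inpp5j change with NR alone was 0.66 ± 0.37 in place of 0.86 ± 0.37. Grb14 then had 0.37 ± 0.19 and Inppl1 0.08 ± 0.07 in that arm, and Akt2 and Rps6kb1 stayed at -0.11 and -0.10. Of the genes not called for running, Insr went from 0.03 to -0.11 and Irs1 from 0.18 to -0.12 in that arm. None of these was called within an arm, where the share of all genes called was 0% with neither, 0.447% with NR alone (0.406% higher, 0.0412% lower) and 0.00687% with PT alone. At an unadjusted p below 0.05 there were 1 of the 10 with neither, 3 with NR alone, 2 with PT alone and 5 with both, against 6.8%, 10.9%, 9.22% and 16.6% of all genes. DESeq2 called none of the 10 in the arms with neither, NR alone and PT alone.

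**Figure D4:**
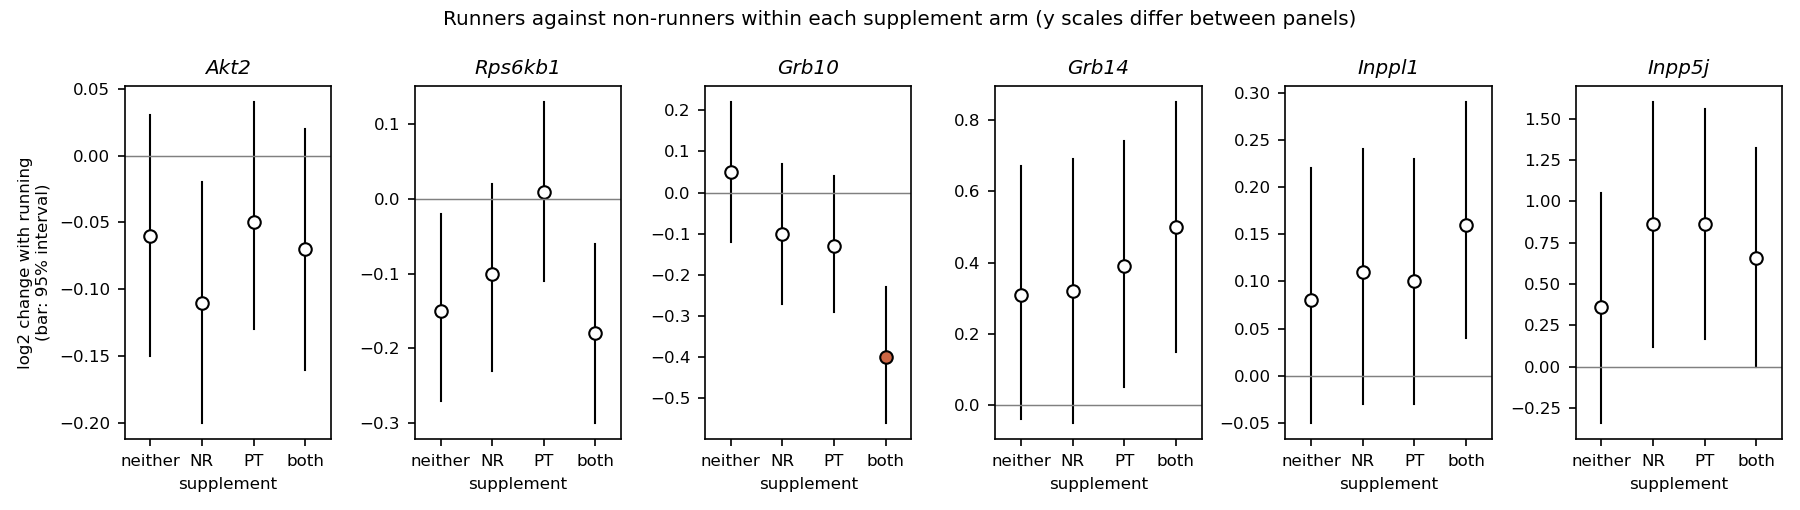
Log2 change of runners against non-runners (points) with its 95% interval (bars) within each supplement arm for the 6 genes called for running, with a separate vertical scale for each gene. Grb10 with both supplements, at -0.40, is the filled point, with an adjusted p below 0.05; the intervals of the 4 arms overlap for the other 5 genes.

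Tests of the other interactions called none of the 10 genes, and 0% of all genes, in edgeR. DESeq2 called none of the 10 either. At an unadjusted p below 0.05 there was Grb10 in each of the running by NR and running by PT terms, none in NR by PT, and Pik3r1 in the 3-way term, against 3.61%, 3.51%, 2.25% and 2.77% of all genes in these 4 terms. Pik3r1, the p85 gene, had medians with NR alone of 37.3 CPM (runners) and 35.3 CPM (non-runners), and with PT alone of 39.3 and 34.4 CPM. With neither they were 36.7 and 39.1 CPM, and with both 36.4 and 36.5 CPM. The running change was thus above 0 with either supplement alone (0.20 and 0.14) and -0.08 with neither and with both, a 3-way term of -0.49 ± 0.17 (unadjusted p = 0.00541, adjusted p = 1). The highest Pik3r1 value of all 62, 54.6 CPM, was that of the library rich in ribosomal RNA-like reads. Without it the change with NR alone was 0.13 ± 0.09 and the 3-way term -0.43 ± 0.16 (unadjusted p = 0.0114, adjusted p = 1).

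NR called none of the 10 genes, against 0.0206% of all genes (0.0137% higher, 0.00687% lower). Their log2 changes lay between -0.09 for Grb14 and 0.05 for Inpp5j in 31 mice with NR against 31 without, and none had an unadjusted p below 0.05. Apart from Inpp5j, the 95% intervals lay between -0.27 (Grb14) and 0.19 (Irs1), so larger mean effects on these 9 lie outside their intervals. Of 30 matched pairs, 14 to 18 were higher with NR, depending on the gene. Irs2, for example, had medians in non-runners of 31.4 CPM with neither, 27.5 with NR alone, 30.4 with PT alone and 26.1 with both. The runner groups had 26.9, 29.3, 24.8 and 25.5 CPM in the same order. The medians were thus lower with NR among non-runners and higher with NR among runners. The runners with NR alone include the library rich in ribosomal RNA-like reads, at 45 CPM. The other mice of that group had 22.8, 22.8, 24.5, 29.3, 32 and 35.1 CPM, so its higher median depends on that library. The group ranges overlapped, and 17 of 30 pairs were higher with NR.

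PT likewise called none of the 10, and 0% of all genes. The log2 changes lay between -0.09 for Irs1 and 0.12 for Inpp5j in 32 mice against 30, with intervals between -0.28 (Irs1) and 0.25 (Grb14) apart from Inpp5j, and none had an unadjusted p below 0.05. Between 13 and 18 of 30 matched pairs were higher with PT. Group means of Insr ran from 101 CPM in runners with both supplements to 112 CPM in runners with NR alone, a group whose SD of 29.3 CPM came with the 177 CPM library. DESeq2 called none of the 10 for NR or PT.

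Noon against morning, a comparison between sessions, called none of the 10 in edgeR or DESeq2 and 0% of all genes in edgeR. Pik3r1 had the only unadjusted p below 0.05, against 5.28% of all genes, with a log2 change of -0.10 ± 0.04 (adjusted p = 0.844). In cohort 2 alone Grb10 was called as higher at noon, by 0.18 ± 0.04 (adjusted p = 0.00464), against 0.07 ± 0.04 over both cohorts (adjusted p = 1). This was the only call among 200 noon values of the 10 genes under the alternatives. The cohort 2 fit counts its 31 mice as the replicates of a comparison between sessions, and the share of all genes it called is not given.

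Of 99 further genes of insulin signalling, 95 were tested and 17 were called for running in the fit over mice, 6 higher and 11 lower. These calls count mice as the replicates, although running was compared between sessions, and values on session sums are not given for these genes. The share called was 17.9%, near the 14.0% of all genes, and the median log2 change of the 95 was 0. Among 20 targets of AKT and the mTORC1 arm 5 fell and none rose, including Rheb, the GTPase that activates mTORC1 (-0.10 ± 0.02), Eif4b, an initiation factor (-0.13 ± 0.03), and Tsc1, an mTORC1 inhibitor (-0.14 ± 0.03). Among 21 feedback inhibitors and ubiquitin ligases 4 fell and 2 rose. Fbxo40, a muscle ubiquitin ligase subunit that targets IRS1, fell from 566 ± 41 to 512 ± 28.8 CPM (SD), a change of -0.14 ± 0.02 (adjusted p = 5.45e-05). Prkcq, protein kinase C theta, fell by 0.12 and Socs7 by 0.10 on the log2 scale, and Cul7, a ligase scaffold, rose by 0.23 ± 0.06.

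Among 17 genes of PI 3-kinase and lipid phosphatases 1 rose, Inpp5d, the blood cell counterpart of Inppl1, at 4.77 ± 1.06 against 3.73 ± 0.764 CPM (0.33 ± 0.08, adjusted p = 0.00179). Of 12 genes of AKT and its regulators 2 rose and none fell, among them Phlpp1 (0.11), and of 15 substrates and adaptors 2 fell, Ptpn11 (-0.08) and Sh2b1 (-0.09). Of 10 ligand and receptor genes 1 rose, the growth factor gene Igf1, by 0.32 ± 0.10 (adjusted p = 0.0193). Phlpp1, Ptpn11, Sh2b1 and Igf1 were named after their values were seen. NR, PT and time of termination called none of the 95 in edgeR or DESeq2, and 3, 4 and 5 had an unadjusted p below 0.05, against 5.69%, 3.99% and 5.28% of all genes.

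Levels of the 10 genes were related in a pattern that crossed the pathway. Over 62 libraries that share the same scaling, and after group, day and time were removed, Inppl1 and Inpp5j had r = 0.50, Grb14 and Inpp5j 0.40 and Grb14 and Inppl1 0.37. Grb10 was negatively related to the same genes, with -0.49 for Inppl1, -0.42 for Grb14 and -0.38 for Inpp5j. Irs1 and Grb14 had -0.50, Insr and Irs1 0.49 and Irs2 and Grb10 -0.42. The library rich in ribosomal RNA-like reads was the highest of all 62 for Insr (177 CPM), Irs1 (100 CPM), Irs2 (45 CPM) and Inpp5j (3.36 CPM). Among runners it was the lowest for Grb14 (11.4 CPM). The correlation of Insr and Irs1 may rest largely on that library, and others that involve these genes may rest on it in part. None was computed without it. All these correlations are descriptions of mice within groups and carry no test.

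**Figure D5:**
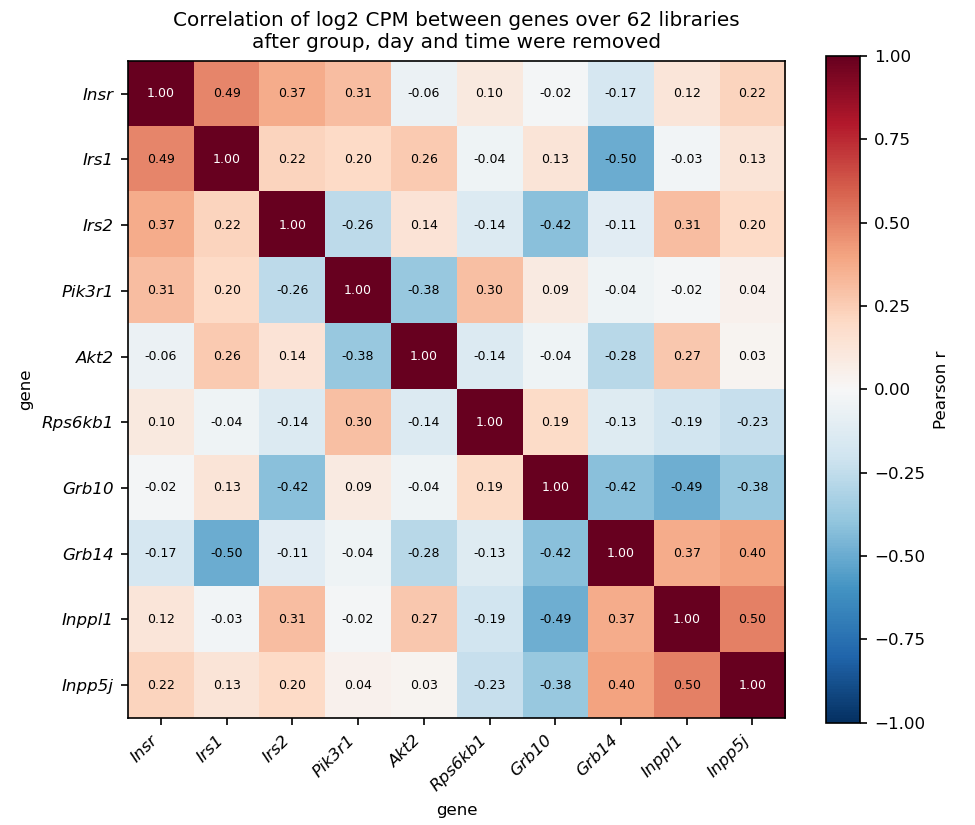
Pearson r of log2 CPM between each pair of the 10 genes over 62 libraries after group, day and time were removed; red is positive and blue negative. Grb14, Inppl1 and Inpp5j form a positive block (0.37 to 0.50) and Grb10 is negative with all 3.

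For each gene called for running, the genes with the most similar level were taken from 11693 candidates as the highest Pearson r over 62 libraries, so no p is given. Grb14 followed Mb, myoglobin (r = 0.90, Spearman 0.89), Mdh1, the cytosolic malate dehydrogenase (0.89 and 0.88), and Hadh, an enzyme of fatty acid oxidation (0.88 and 0.88). Without the 2 libraries farthest out r was 0.87 to 0.88 for these, and with group, day and time removed it was 0.87 to 0.90. Inppl1 was most like Ppip5k1, an inositol phosphate kinase (0.83), and the muscle glycogen synthase gene Gys1 (0.83). Rps6kb1 followed triadin, Trdn (0.81), Kansl1l (0.81) and Kpna1 (0.79), and Akt2 followed Lrrc20 (0.76), Dusp13 (0.75) and Anapc5 (0.74). Likeness was weaker for Grb10, with Asph (0.68) and Ctnnbip1 (0.68), and for Inpp5j, with Wfs1 (0.65), Padi2 (0.64) and the sarcomere gene Myom3 (0.63). Mb, Mdh1 and Hadh were themselves called as higher with running in the fit over mice (log2 changes of 0.67, 0.29 and 0.21).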

How the data were processed

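Values in the deposited table are whole-number gene counts without normalization. Alignment was done with STAR 2.7.3a and counting with featureCounts 2.0.0 (mm10), per the submitters' processing notes. The poly-A library kit kept strand, per the labels' protocols, and the annotation release is not stated there. The gene lengths in the deposited table, an other kind of value in bases, equal the exon union of GENCODE M21 for all 10 genes. Symbols were matched for 55394 of 55487 identifiers (99.8%).

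Low genes were removed by filterByExpr (count of at least 10, total of at least 15). Libraries were scaled by TMM and tested with edgeR 4.0.16 in R 4.3.3, by a two-sided quasi-likelihood F test with robust dispersion. The fit had 8 groups, 8 days and the time of termination, with 46 residual degrees of freedom and a biological coefficient of variation of 14%. Adjustment was by Benjamini and Hochberg over 14549 genes. CPM use TMM-scaled library sizes, correlations use log2 CPM with a prior count of 2, and SEs follow from the F statistic. The 3-count floor covers counting error only, since reads carry no molecular identifiers. The script was tested on simulated data.

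The named genes were all 10 members, of the other pathway genes up to 8 called per comparison by smallest p, and the 3 most similar genes of each called member. Of these, 3 genes are not reported here. The members, lists and rules were chosen with earlier results of these data known. Alternatives covered RLE scaling, DESeq2 1.42.0, no filter, other blocks and covariates, sessions, cohorts, and left-out days and libraries.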

Additional observations from a re-analysis of the deposited data

Results flagged for a closer look

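In 80 gene and group combinations, 10 had a highest or lowest mouse set apart from the rest of its group by more than Dixon's 95% limit, which chance passes in about 1 of 20 groups. Of these, 3 came from the library richest in ribosomal RNA-like reads, replicate 1 of the runners with NR alone: Insr at 177 CPM (next 110), Irs1 at 100 CPM (next 39.6) and Inpp5j at 3.36 CPM (next 1.72). Replicate 1 of the runners with neither supplement was lowest for 2 genes, Irs2 at 21.8 CPM (next 26.6) and Rps6kb1 at 43.2 CPM (next 52.2).

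The library of the runner with both supplements that held Alb RNA, replicate 6, was highest for Irs1 at 51.9 CPM (next 35.6). Replicate 6 of the runners with NR alone was highest for Grb10 at 58.6 CPM (next 47.3). Among non-runners, replicate 4 with both supplements was highest for Irs2 at 42.1 CPM (next 27.8). Inpp5j was highest at 1.6 CPM in replicate 6 with both supplements (next 1.09) and at 1.5 CPM in replicate 3 with PT alone (next 0.843). No interaction term was called for any of the 10 genes.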

How the results depend on the processing

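The count of 6 genes called for running was 6 with RLE scaling and with DESeq2, 5 without the filter, and it was 3 to 6 over the fits that left out 1 day, lowest without day 1. It was 0 in cohort 1 alone and 0 in cohort 2 alone, 1 with body weight change added, 2 on session sums and 7 without the library richest in ribosomal RNA-like reads (2391 of all genes), an alternative chosen after seeing the data. Over all genes the 2035 running calls became 1333 without the filter, 494 with body weight change, 623 in cohort 1, 63 in cohort 2, 1275 on session sums and 1036 to 2358 without 1 day (1036 without day 1, 1189 without day 4). Each cohort holds fewer samples, and the cause of the other shifts was not tested. Within arms DESeq2 called 157 genes with NR alone, 21 with PT alone and 470 with both, against 65, 1 and 247 in edgeR, and edgeR without the library richest in ribosomal RNA-like reads called 26, 1 and 389.

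Without 1 day, Grb14 and Inpp5j were called in all 8 fits, Rps6kb1 in 7, Akt2 in 6 and Grb10 and Inppl1 in 5 each. The 6 called genes had the same sign in all 21 alternatives. Of the uncalled ones, Irs1 crossed 0, at 0 without the filter, -0.03 in cohort 2, -0.03 on session sums, -0.09 without the 8 libraries rich in ribosomal RNA-like reads, -0.07 without the richest, and -0.08 to 0.07 without 1 day. Irs2 and Pik3r1 were at 0 in cohort 2, and Pik3r1 at -0.01 without the 8 libraries. For NR, PT, their interactions and time of termination, 1 value was called under any alternative, Grb10 for noon in cohort 2, which made that count 1.

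The replicate numbers of the labels were not used to pair mice, since same-numbered mice were often terminated on different days. Deviations of same-numbered libraries had a mean correlation of 0.0091, against -0.0012 for different numbers and 0.015 for the same day. Of 62 libraries, 13 were closest to their own number among 8. Values this small cannot decide whether the numbers pair mice. With the replicate block in place of day, 6 of the 10 genes and 1976 of all genes were called for running, and 35 genes for running with NR alone. Depth limits Inpp5j most, with a median of 18.5 counts per library.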
